A study of Saccharomyces cerevisiae with 6 samples.

Results

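The zinc-cluster regulators are a fungal family of transcription factors named after Gal4, and Pdr1 and Pdr3, the activators of pleiotropic drug resistance, belong to it. Their DNA-binding domain holds zinc ions between cysteines and typically contacts short CGG triplets, often as a dimer. Many members control a single pathway of nutrient use or stress defence, and some are known to control their own genes or those of their relatives. In budding yeast (Saccharomyces cerevisiae), PDR3 is a textbook case, since its promoter carries response elements through which Pdr1 and Pdr3 act on it.

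The promoters of 46 genes of this family, taken as a fixed list of names, were searched for peaks of Pdr1 and Pdr3, out of 6002 nuclear protein-coding genes of assembly R64. All 46 names were found. A promoter was the 1000 bp upstream of the annotated start, and a gene was counted when the summit of a peak lay in it. Binding had been profiled by CUT&RUN, in which an antibody on permeabilised nuclei recruits a nuclease that releases the DNA beside the bound protein. Cells had been grown in the rich medium YPD at 30°C. The strain labelled YRP10 gave the c-Myc libraries named for Pdr1 (replicates 1 and 2), and the single c-Myc library named for Pdr3 came from the strain labelled Pdr3_3xmyc. The labels do not say what tag YRP10 carries, or whether the Pdr1 replicates came from separate cultures. Each strain was also profiled with a rabbit IgG control, but no IgG values were used here.

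The peak lists held 792 peaks in Pdr1 replicate 1, 485 in replicate 2 and 7 for Pdr3. Fold enrichments are the values of the authors' peak caller. Their reference is not stated, so they rank peaks only within their own list, where the median was 4.86, 4.85 and 5.48. The lists hold no read counts and the depth is unknown, so a promoter without a listed peak may hold one below the calling threshold. The assay measured binding and not transcript levels.

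Across the family, listed peaks were few. A summit lay upstream of 8 of the 46 genes in at least 1 list: PDR1, PDR3, YRR1, HAP1, SUT1, SUT2, MAL33 and THI2. All 8 were found in replicate 1 (17.4%, 95% Wilson interval 9.09 to 30.7%), where 15.5% of all genes had one. In replicate 2 there were 3, PDR1, PDR3 and SUT2 (6.52%, 2.24 to 17.5%), against 10.2% of all genes. The same 3 genes were those with a summit in both replicates, against 8.95% of all genes. The Pdr3 list held a summit upstream of PDR3 and of no other member (2.17%, 0.385 to 11.3%), against 0.167% of all genes, which is 10 genes in all. The Pdr1 shares were near those of all genes, and the background lay inside each Pdr1 interval.

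**Figure D1:**
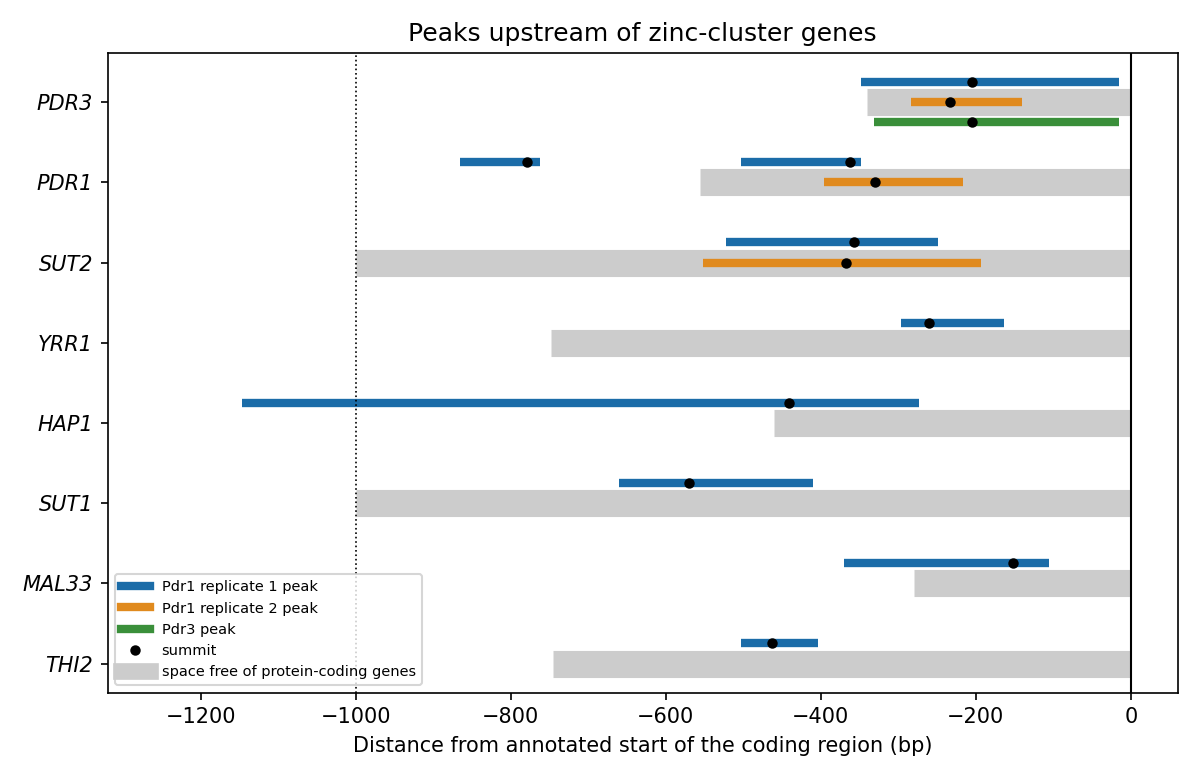
Position of every peak whose summit lay within 1000 bp upstream of a zinc-cluster gene, as distance in bp from the annotated start of the coding region (0); coloured bars are peaks, black points are summits, and grey bars are the space up to the neighbouring protein-coding gene, drawn to 1000 bp at most. PDR3 has bars of all 3 lists, with summits 205 to 234 bp from its start, PDR1 and SUT2 have bars of both Pdr1 replicates, and the other 5 genes have a bar of replicate 1 alone.

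The drug and stress response regulators were described first, since Pdr1 and Pdr3 are among them. PDR3 (YBL005W, chromosome II from 217470 to 220400) had the strongest peaks of the family in all 3 lists. In Pdr1 replicate 1 the peak ran from 217122 to 217455 with a fold enrichment of 19.3, rank 6 of 792. In replicate 2 it ran from 217186 to 217330 with a fold enrichment of 6.99, rank 56 of 485. In the Pdr3 list it ran from 217138 to 217455 with a fold enrichment of 12.6, rank 1 of 7. By fold enrichment the PDR3 promoter was therefore near the top of replicate 1 and of the Pdr3 list, and lower in the order of replicate 2.

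The summit upstream of PDR3 was at base 217265 in replicate 1 and in the Pdr3 list, 205 bp before the start, and at 217236 in replicate 2, 234 bp before it. These summits lay between genes, in a space of 340 bp shared with the divergent gene LDB7, which encodes a subunit of the RSC chromatin remodelling complex. LDB7 was the nearer gene, at 136 bp from the replicate 1 and Pdr3 summits and 107 bp from the replicate 2 summit. SLA1, a gene of the cortical actin cytoskeleton, had the same summits 870 to 899 bp upstream. The lists cannot say which of these genes a bound factor serves.

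PDR1 itself (YGL013C, chromosome VII from 469092 to 472298) was at the other end of the ranking. A replicate 1 peak from 472646 to 472801 had a fold enrichment of 1.96 and held rank 792, the last of that list. The overlapping replicate 2 peak, from 472515 to 472694, had a fold enrichment of 2.52 and held rank 483 of 485. Their summits, at bases 472661 and 472628, lay 363 and 330 bp before the PDR1 start, but 194 and 227 bp before that of the divergent gene ERG4, which encodes the enzyme of the last step of ergosterol synthesis. A further replicate 1 peak, 2.60-fold and rank 773, had its summit 779 bp upstream of PDR1, inside the coding region of ERG4. The Pdr3 list held no peak on chromosome VII. Both replicates thus listed a peak at PDR1, and by fold enrichment it was among the weakest of each list. By −log10 q the replicate 1 peaks stayed near the end, at ranks 772 and 777, while the replicate 2 peak, at 12.4 against a list median of 14.8, held rank 305.

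Self-binding and cross-binding are described here only as listed peaks upstream of PDR1 and PDR3. The PDR3 summits lay nearer to LDB7, and the overlapping PDR1 peaks had summits nearer to ERG4. The Pdr3 peak at PDR3 was the highest of its list by fold enrichment and came after that at PDR5 by −log10 q (88.9 against 136). Pdr1 had a peak at PDR3 at rank 6 and 56 by fold enrichment, and at rank 26 and 96 by −log10 q. Pdr1 had a listed peak of low fold enrichment at its own gene, and no Pdr3 peak was listed at PDR1. When only peaks reaching a −log10 q of 10 were kept, the PDR1 peaks of replicate 1 were removed and that of replicate 2, at 12.4, was kept. The PDR3 peaks passed in all 3 lists, at 108, 24.4 and 88.9.

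YRR1 (YOR162C, chromosome XV from 639560 to 641992), an activator of drug transporter genes such as SNQ2 and YOR1, was the remaining gene of this group with a peak. It was listed in replicate 1 alone, from 642156 to 642289, with a fold enrichment of 6.79, rank 181, and its summit 260 bp before the start. The same summit lay 489 bp upstream of the divergent gene DDP1, a polyphosphate phosphatase gene. The nearest replicate 2 summit was 3309 bp away. Of the 9 genes of the group, 3 had a summit in replicate 1 (33.3%, 12.1 to 64.6%, against 15.5% of all genes). In replicate 2 it was 2 (22.2%, 6.32 to 54.7%, against 10.2%), and in the Pdr3 list 1 (11.1%, 1.99 to 43.5%, against 0.167%). Both Pdr1 intervals held the share of all genes. No summit was listed upstream of PDR8 and YRM1, zinc-cluster regulators of multidrug resistance genes, of STB5, which acts in the response to oxidative stress, of RDR1, a repressor of PDR5, of RDS1, or of WAR1, the weak acid response factor.

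**Figure D2:**
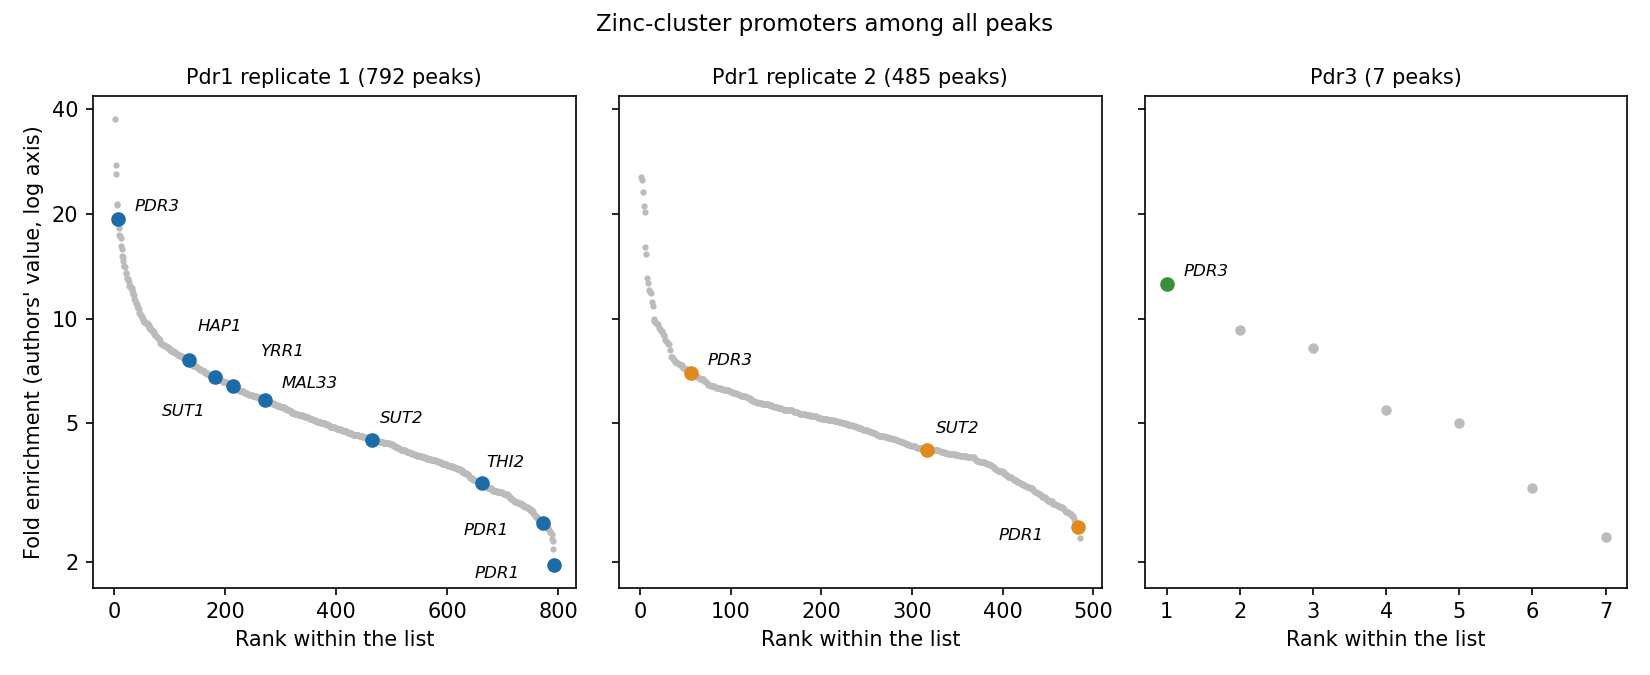
Fold enrichment (authors' value, log axis) against rank within each of the 3 c-Myc lists; grey points are all peaks and coloured points those with a summit upstream of a zinc-cluster gene. PDR3 sits at rank 6, 56 and 1, PDR1 holds ranks 773 and 792 of replicate 1 and 483 of replicate 2, and the other genes lie between.

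Of the 5 regulators of sterols, haem and oxygen response, 3 had a summit in replicate 1 (60%, 23.1 to 88.2%, against 15.5% of all genes). In replicate 2 it was 1 (20%, 3.62 to 62.4%, against 10.2%), and in the Pdr3 list 0 (up to 43.4%, against 0.167%). The space of these 5 genes up to the neighbouring protein-coding gene had a median of 1449 bp, against 448 bp for all genes. Neither the difference from all genes nor the part of this space in the counts was tested. SUT2 (YPR009W, chromosome XVI from 576552 to 577358), a relative of the sterol uptake regulator SUT1, was the third gene with a peak in both replicates. Its peaks ran from 576030 to 576303 in replicate 1 (4.49-fold, rank 464) and from 576000 to 576358 in replicate 2 (4.21-fold, rank 317). Their summits, 357 and 368 bp before the start, were 11 bp apart and lay in no other gene's 1000 bp. SUT2 thus had the closest replicate summits of the 3 genes, at a fold enrichment below the median of each list.

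SUT1 (YGL162W, chromosome VII from 198138 to 199037), which promotes sterol uptake and hypoxic gene expression, had a peak in replicate 1 alone. It ran from 197477 to 197728 (6.39-fold, rank 213), with its summit 570 bp upstream. HAP1 (YLR256W, chromosome XII from 646415 to 650923), the haem-responsive activator of respiratory genes, also had a peak in replicate 1 alone, from 645269 to 646142. That peak was 7.59-fold enriched, rank 134, and with 874 bp the widest at any member. Its summit lay 441 bp before HAP1 and 21 bp before the annotated gene YLR255C. The nearest replicate 2 summits were 48317 bp from the SUT1 summit and 52462 bp from the HAP1 summit. ECM22 and UPC2, the activators of sterol synthesis genes, had none within 1000 bp.

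Among the 11 regulators of carbon source use, fatty acids and thiamine, 2 had a summit in replicate 1 (18.2%, 5.14 to 47.7%, against 15.5% of all genes). In replicate 2 and in the Pdr3 list it was 0 (interval up to 25.9%, against 10.2% and 0.167%). MAL33 (YBR297W, chromosome II from 800523 to 801929), a maltose gene activator, had a peak from 800153 to 800417 (5.83-fold, rank 271), with its summit 152 bp before the start. The same summit lay 129 bp upstream of TYC1, the nearer gene. The labels do not state how reads that match several places in the genome were assigned. THI2 (YBR240C, chromosome II from 700490 to 701842), an activator of thiamine synthesis genes, had a peak from 702246 to 702345 (3.37-fold, rank 663), the weakest among the 5 members with a summit in replicate 1 alone. Its −log10 q of 5.80 was near the lowest of that list, 5.05. No summit was listed upstream of GAL4, the galactose activator, of CAT8, SIP4, RDS2 and ERT1, which regulate gluconeogenesis, of RGT1, a repressor of hexose transporter genes, or of the fatty acid regulators OAF1, OAF3 and PIP2.

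In the other groups no list held a summit upstream. These were the 10 regulators of amino acids, nitrogen and pyrimidines (ARG81, ARO80, CHA4, DAL81, LEU3, LYS14, PUT3, UGA3, PPR1 and URC2), the 4 of chromatin, the kinetochore and meiosis (RSC3, RSC30, CEP3 and UME6) and 7 that are less characterised or outside the other groups (ASG1, EDS1, HAL9, SEF1, STB4, TBS1 and TEA1). The Wilson intervals of these counts of 0 reached up to 27.8%, 49.0% and 35.4%. Each of them holds the background shares of 15.5% and 10.2%, so the lists do not separate these groups from other genes.

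Peaks at members were unlike each other in strength. Over the 9 replicate 1 peaks the fold enrichment had a median of 5.83 and ranged from 1.96 to 19.3, and 5 of the 9 were above the median of the whole list. Over the 3 replicate 2 peaks it was 2.52, 4.21 and 6.99, and 1 was above the list's median. Summits of replicate 1 lay 152 to 779 bp before the start, with a median of 363 bp. Of these 9 summits 8 lay between protein-coding genes, and 5 were within 1000 bp upstream of another gene too.

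The 5 members with a peak in replicate 1 alone had fold enrichments from 3.37 to 7.59. Of all 530 replicate 1 peaks in that range, 245 (46.2%) shared at least 1 bp with a peak of replicate 2. In their −log10 q range, 5.80 to 27.4, it was 212 of 539 replicate 1 peaks (39.3%). Across all genes, 57.7% of those with a replicate 1 summit upstream also had one in replicate 2. Among the members it was 3 of 8 (37.5%).

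**Figure D3:**
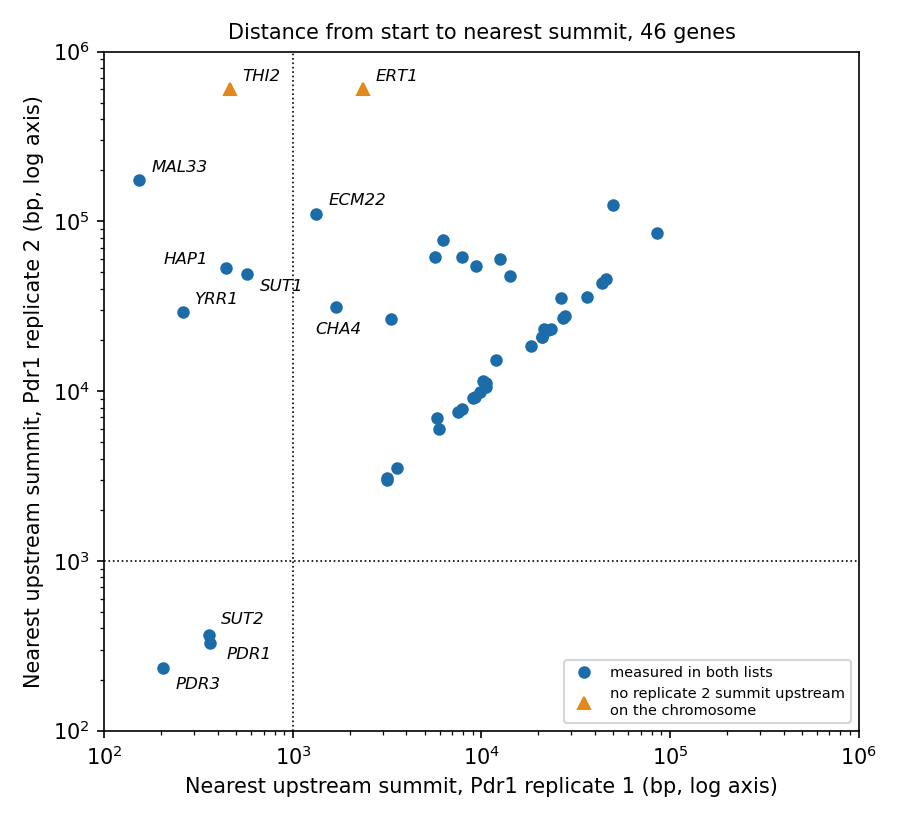
Distance in bp from the annotated start to the nearest upstream summit in Pdr1 replicate 1 (x axis) and replicate 2 (y axis), both log axes, for the 46 genes; dotted lines mark 1000 bp, and triangles mark genes with no replicate 2 summit upstream on their chromosome, drawn at the top. PDR1, PDR3 and SUT2 lie below 1000 bp on both axes and 5 genes on the x axis alone, and the nearest of the others is ECM22 at 1328 bp.

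The distance to the nearest upstream summit was then measured for every member. Its median was 9099 bp in replicate 1 over the 46 members, against 10139 bp over the 5824 genes that had one on their chromosome, and 23344 bp in replicate 2 over 44 members, against 16855 bp over 5762 genes. Over the 38 genes without a listed summit it was 10383 bp in replicate 1, and 23338 bp in replicate 2 for the 37 that had one. For 15 of the 38 the distances in the replicates differed by at most 100 bp. Just outside the 1000 bp was ECM22, with a replicate 1 summit 1328 bp upstream (7.33-fold, rank 144) that lay in no gene's 1000 bp. Next came CHA4, 1684 bp from a replicate 1 summit (10.8-fold, rank 42). That summit lay 168 bp upstream of MIM2, 229 bp upstream of ICT1 and 653 bp upstream of ERG27. No other member had a summit of any list within 2000 bp. No summit of any list lay inside the coding region of a member, where 2.20% of all genes had one in replicate 1 and 1.17% in replicate 2.

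The space upstream of a gene bears on how many summits its 1000 bp can hold. Members had a median of 480 bp up to the neighbouring protein-coding gene, and all genes 448 bp. Of all genes, 29.4% with at least 1000 bp and 5.95% with less than 250 bp had a replicate 1 summit. At the share of all genes in their own length class (limits at 250, 500 and 1000 bp), 7.13 members would have one in replicate 1, against 8 found, and 4.11 in both replicates, against 3 found.

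Other gene lists are given beside the family. Of 10 zinc-cluster genes outside the 46, 1 had a summit in replicate 1 (YLR278C, 4.13-fold). This was 10% (1.79 to 40.4%), against 15.5% of all genes. In replicate 2 and in the Pdr3 list it was 0 (interval up to 27.8%, against 10.2% and 0.167%). Of 15 genes of bZIP factors, another family of regulators, 7 had a summit in both Pdr1 replicates (46.7%, 24.8 to 69.9%). Of 12 stress and drug response regulators of other families it was 6 (50%, 25.4 to 74.6%), and of 18 reported Pdr1/Pdr3 targets, mostly transporter and lipid genes, 13 (72.2%, 49.1 to 87.5%). The share of the zinc-cluster genes was 6.52% (2.24 to 17.5%), and this interval held the share of all genes, 8.95%. The members and the comparison lists were chosen with earlier results of these data known, and no difference between them was tested. Upstream space differed between the lists too, with medians of 666 bp for the bZIP genes, 924 bp for the other regulators and 1088 bp for the targets. Its part in the shares was not tested, and no length-class value was computed for the targets. At the all-gene share of the same length classes, 1.67 of the 15 bZIP genes and 1.74 of the 12 other regulators would have a summit in both replicates.

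**Figure D4:**
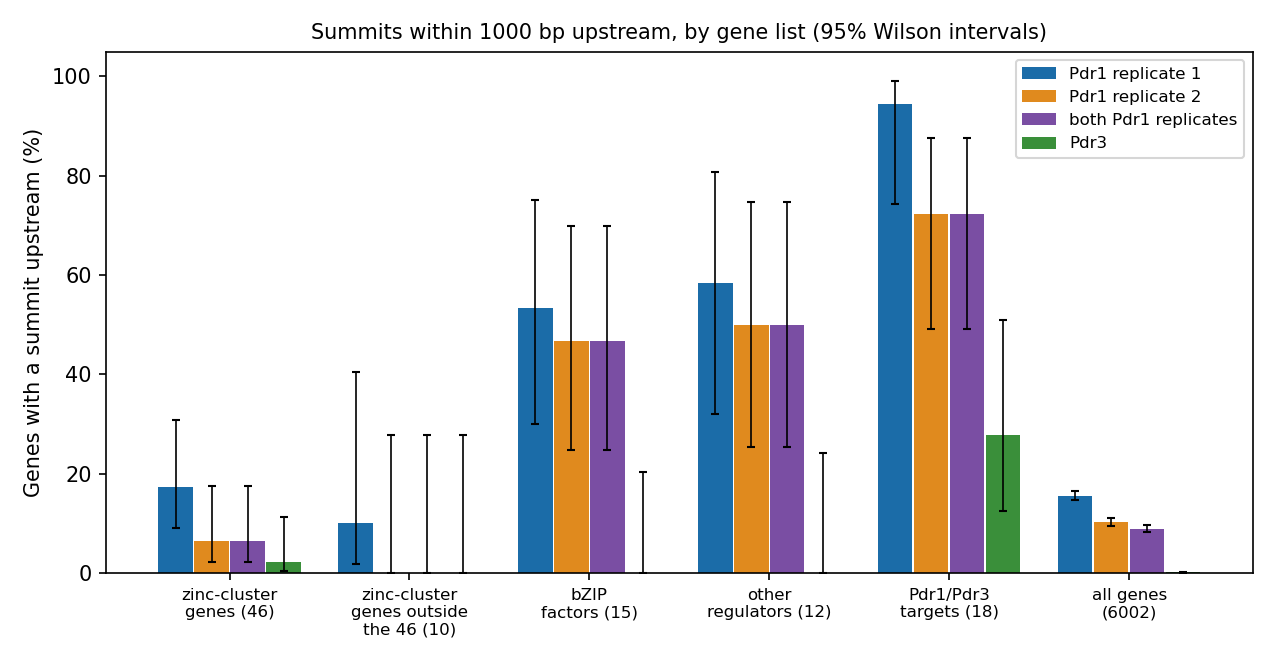
Share of genes (%) with a summit within 1000 bp upstream in each Pdr1 replicate, in both, and in the Pdr3 list, for the 46 zinc-cluster genes, 4 comparison lists and all 6002 genes; bars are shares and error lines 95% Wilson intervals. The zinc-cluster bars for both replicates (6.52%) stand near that of all genes (8.95%), and those of the bZIP factors, other regulators and targets stand at 46.7%, 50% and 72.2%. The lists were chosen with earlier results of these data known.

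PDR3 was the only member among the 10 genes with a summit upstream in all 3 lists. The others were its neighbours LDB7 and SLA1, the membrane transporter genes PDR5, SNQ2, PDR15 and TPO1, the sphingoid base resistance gene RSB1, and RGL1 and YPL068C, which share a summit. Ranked by fold enrichment within each list, PDR3 stood above PDR5 in replicate 1 (6 against 26) and in the Pdr3 list (1 against 3), and below it in replicate 2 (56 against 3). Ranked by −log10 q, PDR3 stood below PDR5 in all 3 lists, at 26 against 2, 96 against 1 and 2 against 1.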

How the data were processed

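Of 6 samples, the 3 c-Myc libraries each have a peak list, without a header. The submitters' processing notes name Trimmomatic 0.33, Bowtie2, Picard, deepTools and MACS2 2.1.1 and the builds R64 and sacCer3, without roles. No label states how IgG and spike-in reads were used. The deposited fold enrichment (a ratio), −log10 p-value, −log10 q-value and score are the peak caller's. The deposited score repeats the −log10 q on another scale, and neither it nor the −log10 p was used further.

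Positions were counted from 1. Gene models came from the RefSeq table of R64, and strands from the systematic names. A gene was given every summit in its 1000 bp upstream, so genes can share a summit. The assignment was tested on simulated data, in which 200 of 200 planted summits were recovered. The 95% Wilson intervals of shares cover no error other than counting. No set test was made. Python 3.11.15, pandas 2.3.3 and scipy 1.17.1 were used.

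The members, their role groups, the comparison lists and the rule for named genes were chosen with earlier results of these data known. The rule took PDR1, PDR3, every member with a summit, the genes sharing it, and the other members by name. In each comparison list it took the genes with all 3 lists and up to 5 with the best mean rank in both replicates. CHA4, ECM22 and YLR278C, and the genes beside the summit nearest to CHA4, are given with values outside that rule, chosen after their values were seen. No promoter or protein sequence was used here, so the planned searches for the response element and the cysteine pattern were not run.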

Additional observations from a re-analysis of the deposited data

How the results depend on the processing

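Of 35 recomputed counts of members, 32 stayed within 1.5 times the reported count. The 3 exceptions concern the members with a Pdr1 summit in both replicates, 3 as reported. The count was 1 (SUT2) when the replicate peaks had to overlap reciprocally by 50%, since the PDR3 peaks (334 and 145 bp wide) and the PDR1 peaks overlapped by less. The share of all genes fell too, from 8.95% to 6.43%. The count was also 1 (SUT2) when each summit went to the nearest start only, with 5.76% of all genes. That setting gave the PDR3 summits to LDB7, and to ERG4 the PDR1 summits 363 bp (replicate 1) and 330 bp (replicate 2) upstream. The replicate 1 summit 779 bp upstream of PDR1 lay in no other gene's 1000 bp. Leaving out 1 replicate gave 3 to 8, the 8 being replicate 1 alone. It was 2 (PDR3 and SUT2) with peaks kept from a −log10 q of 10 (6.63% of all genes) or with equal numbers of peaks (6.06%). PDR3 was the sole member in the Pdr3 list under every setting run on that list. The nearest-start setting was not run on it, and there the summit lay nearer to LDB7 (136 bp) than to PDR3 (205 bp).

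Ranked by −log10 q, the PDR3 peak moved from rank 6 to 26 in replicate 1 and from 56 to 96 in replicate 2, SUT2 from 464 to 295 in replicate 1, and PDR1 from 483 to 305 in replicate 2. In the Pdr3 list PDR3 moved from rank 1 to 2, behind PDR5. The cause was not tested. Windows of 2000 bp, chosen after seeing the data, added CHA4 and ECM22 in replicate 1. No paired analysis was possible because no values of IgG libraries, the ones numbered like the Pdr1 c-Myc replicates, were used here. The planned settings for the response element and the cysteine pattern were not run for want of sequence.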

Other observations

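Regulator genes of other families had listed peaks in both Pdr1 replicates. RPN4, the activator of proteasome genes, had fold enrichments of 11.8 in replicate 1 (rank 34) and 6.71 in replicate 2 (rank 67). ROX1, a repressor of hypoxic genes, had 7.85 and 6.64 (ranks 117 and 71), and NRG1, a repressor in glucose response, 7.85 and 6.16 (ranks 116 and 101). The stress activator gene MSN4 had 5.30 in replicate 1, with its summit at base 322866. In replicate 2 it had peaks of 6.23 and 4.79, with summits at 322498 and 322853. HAA1, of the weak acid response, had 6.11 and 4.20. HAA1 is the neighbour of SUT2, and their peaks were separate. Among the bZIP genes, the divergent pair YAP5 and MET28 shared a summit (5.89-fold and 7.46-fold), so the 7 bZIP genes with both replicates count that region for each. YAP6 had 5.59 and 9.63, ACA1 6.57 and 5.68, and GCN4, the activator of amino acid synthesis, 4.88 and 5.52. None of these regulators had a listed Pdr3 peak. Among the targets, the best mean ranks were those of PDR16 (ranks 1 and 2), RSB1 (20 and 1), IPT1 (15 and 6), PDR5 (26 and 3) and YOR1 (25 and 15).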
